A study of Rattus norvegicus with 5 samples.

Results

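Ubiquitin-conjugating E2 enzymes were read as the rat genes whose symbol begins with Ube2, leaving out Ube2l6. This rule found 26 genes, measured by 36 probes, among the 15167 named genes of the array. The rule itself used gene names and no measured value, though it was chosen with earlier results of these data known. The cells were BRL-3A, a line from rat liver, on one-colour Agilent arrays. They fell into 5 groups with 1 array each: a lentivirus for Tmub1 overexpression, a lentivirus for Tmub1 knockdown, a negative control of its own for either virus, and a normal control whose labels name no virus. RNA was collected 48 h after transduction. The sources used here do not name the promoter of the overexpression virus, the knockdown sequence or the content of the control viruses. The series asks what Tmub1, which encodes a membrane protein carrying a ubiquitin-like domain, does to transcription in hepatic cells.

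An E2 enzyme takes activated ubiquitin from an E1 enzyme onto its active-site cysteine and, together with an E3 ligase, passes it to a substrate, so the E2 helps to set which kind of ubiquitin mark is made. Some members serve related modifiers such as NEDD8, and the Ube2v proteins lack the cysteine and act as partners of Ube2n. In liver, as in other secretory tissue, Ube2g2, Ube2j1 and Ube2j2 serve the disposal of misfolded proteins at the endoplasmic reticulum (ER), whereas Ube2c and Ube2s work with the anaphase-promoting complex (APC/C) in dividing cells and Ube2t with the Fanconi anaemia DNA repair pathway.

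Promoter sequence was at hand for 22 of the 26 members (RefSeq, build GRCr8). The members without sequence are not named here, so a member missing from the counts below, such as Ube2c, may not have been searched. The letters TGACGTGG, the site read by the ER stress factors ATF6 and XBP1, were searched on both strands of the 250 bases before the gene start. They stood in 2 of the 22 members, Ube2g2 and Ube2j1, and in 0.52% of all 33465 promoters. Both matches lay on the opposite strand, so the capitals below read CCACGTCA, and the third ER member, Ube2j2, is shown beside them because it held no match. The first base of the 8 lies 59 bases before the start in Ube2g2 and 76 bases before it in Ube2j1. Each stretch is the 150 bases just before the gene start, 5′ to 3′ on the gene's strand.
Ube2g2 (chr20:11005061-11005210, minus strand): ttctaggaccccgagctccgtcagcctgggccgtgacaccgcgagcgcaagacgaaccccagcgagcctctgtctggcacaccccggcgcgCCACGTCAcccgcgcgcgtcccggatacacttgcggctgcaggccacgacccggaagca
Ube2j1 (chr5:52218657-52218806, plus strand): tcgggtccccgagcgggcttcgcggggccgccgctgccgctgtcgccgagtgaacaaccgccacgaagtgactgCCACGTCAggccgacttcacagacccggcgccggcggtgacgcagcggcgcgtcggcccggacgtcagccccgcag
Ube2j2 (chr5:171815462-171815611, plus strand): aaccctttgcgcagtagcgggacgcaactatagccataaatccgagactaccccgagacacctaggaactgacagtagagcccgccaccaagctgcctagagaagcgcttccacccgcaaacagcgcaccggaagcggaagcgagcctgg

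Ube2f and Ube2t are shown for the other promoter elements searched. Capitals mark CCAAT, found in 6 of the 22 members (Ube2a, Ube2d2b, Ube2f, Ube2g2, Ube2s and Ube2t) and in 34% of all promoters, and, in Ube2f only, also TTTGAA, a core of the cell-cycle element CHR, which 2 members (Ube2f and Ube2m) and 16.2% of all promoters held. GGGCGG, the GC box, stood in 15 members against 30.5% of all promoters, and the E2F letters TTTCCCGC in Ube2q1 alone against 0.813%. No member held the full ER stress element ERSE (0.0657% of all promoters), TGATGNAA (3.4%), TGACGTCA (1.59%) or the NRF1 site (0.762%). A match is a description of letters, not a measured binding site.
Ube2f (chr9:99293365-99293514, plus strand): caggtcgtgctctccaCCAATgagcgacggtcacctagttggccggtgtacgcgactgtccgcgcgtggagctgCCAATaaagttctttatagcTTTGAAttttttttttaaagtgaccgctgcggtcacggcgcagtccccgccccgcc
Ube2t (chr13:48955016-48955165, plus strand): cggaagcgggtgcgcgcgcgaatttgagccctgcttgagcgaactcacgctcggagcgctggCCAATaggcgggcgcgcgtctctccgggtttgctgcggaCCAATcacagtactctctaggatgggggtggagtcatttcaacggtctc

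Levels are the log2 of the scanner's processed signal minus the 75th percentile of the same array, so 0 is the 75th percentile of all probes, and a level is compared only with the same probe on another array. A difference was called when it reached 2.5-fold, or 1.32 on the log2 scale, and the brighter of the compared values was well above background. There was no replicate, so no p-value is given, and the intervals beside the differences are the scanner software's 95% error of the spot reading alone. Tmub1 itself, on its 1 named probe, read 0.44 with the overexpression virus, 0.37 with its negative control, -1.42 with the knockdown virus, 0.45 with its negative control and 0.08 in normal cells. It was thus 3.65-fold lower with the knockdown virus, while the array labelled overexpression differed 1.05-fold from its control, so its direction is that of a label which this probe did not bear out. Whether the probe can read the viral transcript is not stated in the sources used here.

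Between 66.9% and 86.5% of probes were well above background, and the median processed signal lay between 116.4 and 356.2. The signal was highest with the knockdown virus (356.2) and in normal cells (329.4). Per the file headers the 4 virus arrays shared a scan day while the normal array had another. Scan day and group therefore cannot be told apart against normal cells. The summed level of the measured skeletal muscle markers was 5.19 to 5.68 on the virus arrays and 0.57 on the normal array, with 5 of 6 markers detected in normal cells and all 6 elsewhere, and that of adipocyte markers was 3.08 to 3.83 against -2.86, with 3 of 5 detected in normal cells and 4 or 5 elsewhere. Their part in the differences from normal cells was not tested. The labels call the cells hepatocytes: of 10 hepatocyte markers, 5 (Hnf4a, Serpina1, Tf, Fgb and Cyp2e1) were well above background on all 5 arrays, Apob on 4, Alb, Ttr and Apoa1 on 2 and Cps1 on 0. The mesenchymal markers Vim and Col1a1 were so on all 5.

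With the knockdown virus, 3 of the 24 members that were above background on all 5 arrays were called higher than with its negative control, and 2 were called lower. The 3 were Ube2j1, Ube2q1 and Ube2f, and the 2 were Ube2v1 and Ube2d1. Among all 12300 genes tested, 8.8% were called higher and 10.4% lower. The members' share of calls, 5 of 24, was thus near the 19.2% of all genes called in either direction. The median difference of the members was -0.24 and that of all genes -0.26, and the median size was 0.66 against 0.69. The remaining members, Ube2ql1 and Ube2q2l, were above background on no array.

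The all-gene median moved with the way the arrays were scaled, from -0.37 to 0.05 over the 6 scalings tried, so differences are also given relative to it. Under all 6, 10 members lay above 0 and 8 below, and the sign of Ube2n, Ube2t, Ube2b, Ube2m, Ube2g1 and Ube2d3 turned with the scaling. The split of 3 higher and 2 lower was 4 and 1 by quantile scaling and in the authors' deposited table, and 4 and 0 by cyclic loess and by the 75th percentile over detected probes. The same 3 members, Ube2j1, Ube2q1 and Ube2f, were called higher under all 6, and no member was called lower under all 6. The share of all genes called under all 6 is not given here, so these counts do not set the members apart from other genes.

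**Figure D1:**
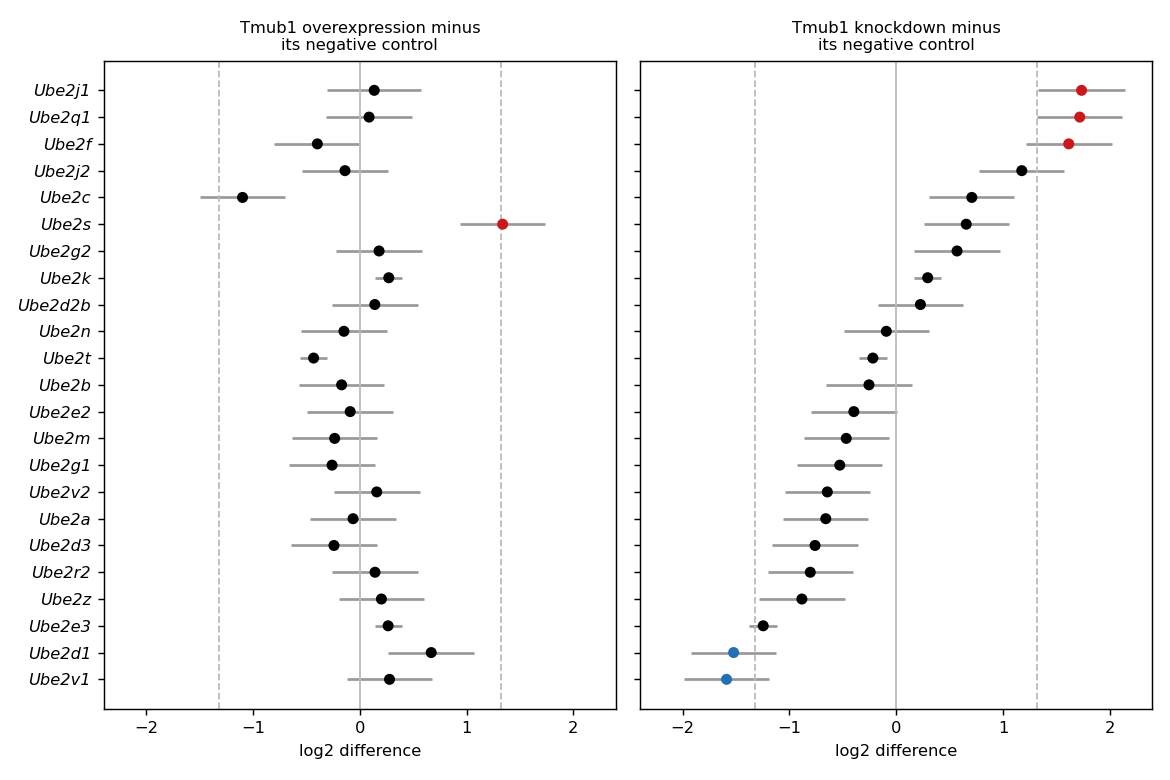
Log2 difference of 23 of the 24 Ube2 genes above background on all 5 arrays (rows, ordered by the knockdown difference), for the Tmub1 overexpression array minus its negative control (left) and the knockdown array minus its negative control (right). Points are 1 array against 1 array, horizontal bars the scanner's 95% error of the spots, dashed lines 2.5-fold; coloured points are the called genes, with 1 on the left (Ube2s) and 5 on the right.

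All 3 ER members had their highest level of the 5 arrays with the knockdown virus, as did 25.8% of all genes. Ube2j1 is anchored in the ER membrane by its tail and serves ER-associated degradation. Its level was -0.71 with the knockdown virus, -2.45 with the knockdown negative control, -3.13 with the overexpression virus, -3.26 with the overexpression negative control and -2.70 in normal cells. The knockdown array stood apart, with the other 4 between -3.26 and -2.45. The difference from its negative control was 1.74 (1.33 to 2.14), or 3.33-fold, and 2.00 relative to the all-gene median. It was 2.55 when set against the overexpression negative control and 1.99 against normal cells.

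Ube2j2, the second tail-anchored ER member, read 1.93 with the knockdown virus, 0.75 with its negative control, 0.51 with the overexpression virus, 0.65 with that virus's negative control and 0.36 in normal cells. The difference was 1.18 (0.78 to 1.58), or 2.26-fold, which is short of the call by the 75th percentile but past it under 4 of the 6 scalings, with a range of 1.18 to 1.64. From normal cells the gap was 1.56, past the threshold. Ube2g2, a soluble E2 that ER ligases recruit, read 0.80, 0.23, 0.18, 0.00 and -0.15 in the order used for Ube2j1. Its difference of 0.57 (0.17 to 0.97), or 1.48-fold, was not called, and it was 0.80 and 0.96 against the other negative control and normal cells. So of the members whose promoters held TGACGTGG, Ube2j1 was called and Ube2g2 was not, while Ube2j2, without those letters, lay between them.

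Of 18 listed ligases and cofactors that the ER members work with, 14 were measured. None of these was called in either direction with the knockdown virus, where 8.8% of all genes were called higher and 10.4% lower, or with the overexpression virus (2.02% and 1.12%). Over the scalings 0 or 1 was called higher with the knockdown virus, and the median ran from -0.05 to 0.28. The median knockdown difference over these 14 was -0.04, against 1.18 over the 3 ER members. Vcp, the ATPase that pulls substrates out of the membrane, differed by 1.28 and the lectin gene Os9 by 1.00, whereas Derl1, of the membrane channel, differed by -1.30. Syvn1, the central ligase gene, differed by -0.67 and its partner Sel1l by 0.44.

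**Figure D2:**
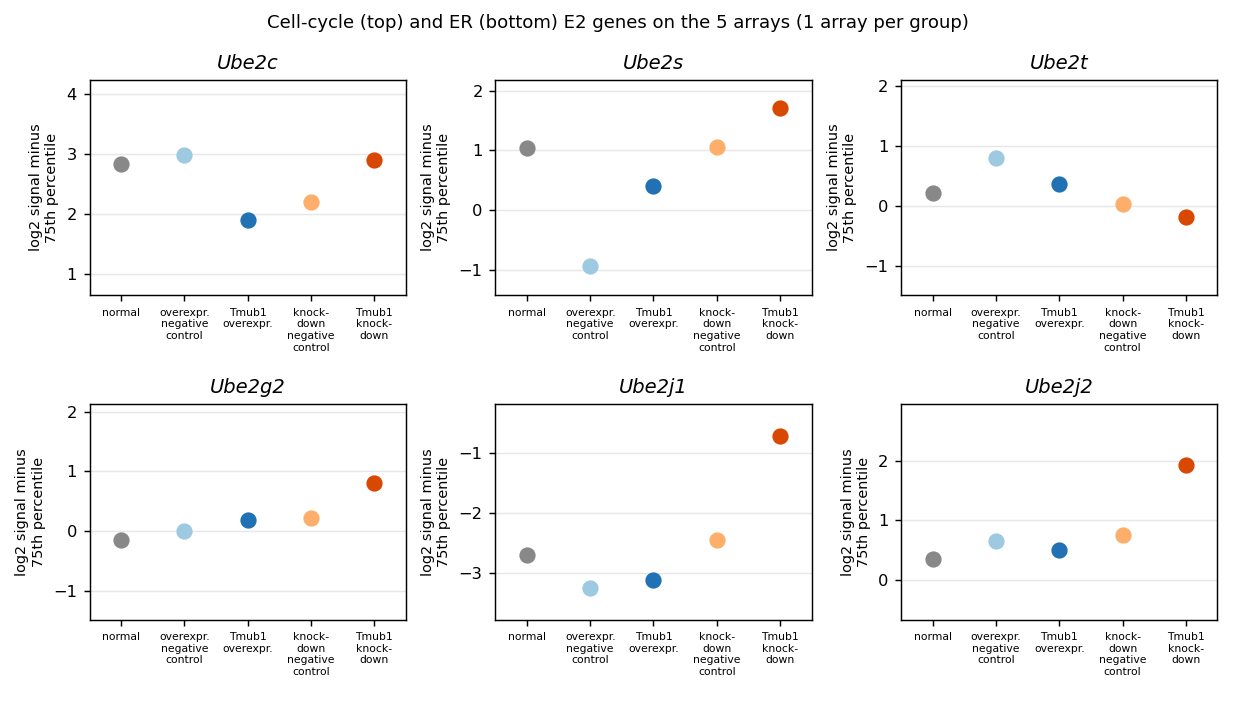
Level (log2 processed signal minus the array's 75th percentile, every panel with the same span of the axis) of the cell-cycle members Ube2c, Ube2s and Ube2t and the ER members Ube2g2, Ube2j1 and Ube2j2 on the 5 arrays. Each point is 1 array; Ube2j1 and Ube2j2 stood apart on the knockdown array (-0.71 and 1.93), and Ube2s was lowest with the overexpression negative control (-0.94).

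No cell-cycle member was called with the knockdown virus. Ube2c, which starts ubiquitin chains on APC/C substrates in mitosis, read 2.90 with the knockdown virus and 2.19 with its negative control, 1.89 with the overexpression virus and 2.99 with that virus's negative control, and 2.83 in normal cells. The knockdown difference was 0.71 (0.31 to 1.11), or 1.63-fold, and 0.71 to 1.26 over the scalings, and the overexpression difference -1.10 (-1.50 to -0.70), or 2.14-fold lower. Neither was called. The knockdown array was level with the other controls, at -0.09 from the overexpression negative control and 0.07 from normal cells, so the knockdown difference rested on the lower reading of its own negative control.

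Ube2s, which extends the chains that Ube2c begins, was the member called with the overexpression virus. It read 0.40 with that virus, -0.94 with its negative control, 1.70 with the knockdown virus, 1.05 with the knockdown negative control and 1.04 in normal cells. The reading of -0.94 stood apart below the other 4. The overexpression difference was 1.34 (0.94 to 1.74), or 2.53-fold. The call held under 3 of the 6 scalings, with a range of 1.15 to 1.38, and the sign turned against the other references, with -0.65 against the knockdown negative control and -0.64 against normal cells. The same low reading gave the calls of Ube2s between the negative controls (1.99) and between the overexpression negative control and normal cells (-1.98). With the knockdown virus Ube2s differed by 0.66, or 1.58-fold, from its own negative control.

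Ube2t, the E2 that attaches ubiquitin to the Fancd2 product together with the ligase Fancl, read -0.19 with the knockdown virus, 0.03 with its negative control, 0.37 with the overexpression virus, 0.80 with that virus's negative control and 0.22 in normal cells. It had its lowest level on the knockdown array, where Ube2s had its highest. The differences were -0.22 (-0.35 to -0.08) with the knockdown virus and -0.43 (-0.56 to -0.31) with the overexpression virus, and relative to the all-gene median the former was 0.05.

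The genes that act with these members included several calls. Of the 15 measured APC/C genes of 17 listed, 4 were called higher with the knockdown virus and 1 lower, with a median of 0.23, where 8.8% of all genes were called higher and 10.4% lower. Over the scalings the list gave 1 to 6 called higher and 0 or 1 lower. The subunit genes Anapc7, Cdc27 and Cdc16 were 4.46-fold, 3.15-fold and 2.69-fold higher, the inhibitor gene Fbxo5 3.03-fold higher, and the catalytic RING subunit gene Anapc11 2.75-fold lower. Only Anapc7 among them was called under all 6 scalings. Cdc27, Cdc16 and Fbxo5 were called under 5 and Anapc11 under 3, and the Fbxo5 difference ran from 0.08 to 1.91. The knockdown array differed from normal cells by 1.74 for Anapc7, 0.93 for Cdc27, 0.09 for Cdc16 and -0.67 for Fbxo5. From the overexpression negative control it differed by 0.41 for Cdc16 and 0.74 for Fbxo5, while Anapc7 and Cdc27 lay past the threshold. In the knockdown negative control itself Cdc16 and Fbxo5 were called lower than in normal cells, 2.53-fold and 4.81-fold. The part of that gap in their calls was not tested. All 4 genes called higher had mean levels below 0. Of the 6235 genes with such levels that were above background on all arrays, 11.4% were called higher. With the overexpression virus Anapc7 was at least 3.62-fold higher and Fbxo5 at least 2.60-fold lower, each set against an array where the gene was not well above background.

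In the Fanconi pathway, 3 of the 7 measured genes of 12 listed were called higher with the knockdown virus and 0 lower, against the same 8.8% and 10.4% of all genes, and over the scalings 1 to 3 were called higher. Fancd2, whose product Ube2t modifies, was 3.80-fold higher and was called under all 6 scalings, while Fancc (3.34-fold) and the ligase gene Fancl (3.26-fold) were called under 5. None was called with the overexpression virus, where the median was -0.37. Of 10 measured cell division genes, 9 lay above 0 with the knockdown virus, against 38.83% of all genes, with a median of 0.50. Cenpa (4.18-fold) and Ccnb1 (3.01-fold) were called higher, against 8.8% of all genes, with 1 to 4 called higher over the scalings. Against normal cells the knockdown array differed by -0.24 for Cenpa and 0.09 for Ccnb1. Against the overexpression negative control it differed by 1.92 and 0.43. With the overexpression virus 1 of these 10 lay above 0, against 48.56% of all genes, with a median of -0.72. In the knockdown negative control 5 of these genes were called lower than in normal cells, against 9.81% of all genes, with a median of -1.34. Between the negative controls 2 of these genes were called lower in the knockdown one, against 3.4% of all genes. The knockdown negative control itself lay below the overexpression negative control on this list, with a median of -1.13. The part of that gap in the differences of Ube2c was not tested.

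Of the NEDD8 members, Ube2f was called and Ube2m was not. Ube2f carries NEDD8 to Cul5 together with Rnf7, and it read 0.58 with the knockdown virus, -1.03 with its negative control, -1.25 with the overexpression virus, -0.85 with that virus's negative control and -1.10 in normal cells. The knockdown array stood above the other 4, which lay within -1.25 to -0.85. The difference was 1.62 (1.22 to 2.02), or 3.07-fold, 1.88 relative to the all-gene median, and 1.44 and 1.68 against the other negative control and normal cells. Ube2m, the NEDD8 E2 for the other cullins, differed by -0.47, and 0.08 and 0.11 against those references.

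The partners of Ube2f were not called by the 75th percentile. Rnf7 differed by -1.07 and Cul5 by 1.13 with the knockdown virus. None of the 11 measured cullin and NEDD8 partner genes of 14 listed was called, with a median of -0.03. Among all genes 8.8% were called higher and 10.4% lower. Dcun1d3 (1.30) and Cul4a (1.24) lay just short of the threshold, and over the scalings 0 to 3 of the list were called higher, with a median of -0.03 to 0.53. Of 4 measured SUMO ligase genes of 5 listed, Pias2 was 3.62-fold and Pias1 3.54-fold higher and Pias3 2.86-fold lower, called under 6, 5 and 4 scalings, where 8.8% of all genes were called higher and 10.4% lower.

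Ube2q1, an E2 with an extended N-terminal region, read 0.64 with the knockdown virus, -1.08 with its negative control, -1.19 with the overexpression virus, -1.28 with that virus's negative control and -0.71 in normal cells. Only the knockdown array was above 0. The difference was 1.72 (1.32 to 2.12), or 3.29-fold, 1.98 relative to the all-gene median, and 1.91 and 1.35 against the other references. Ube2j1, Ube2q1 and Ube2f were the 3 of 24 members called higher with the knockdown virus against each of the 3 control arrays, and Ube2v1 was the 1 called lower against each. Of the 10702 genes above background on all arrays, 4.13% were called higher against all 3 and 3.44% lower. The 3 comparisons share the knockdown array.

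Ube2v1, a catalytically inactive partner of Ube2n in building chains used for signalling and DNA damage tolerance, read 2.19 with the knockdown virus, 3.78 with its negative control, 4.64 with the overexpression virus, 4.37 with that virus's negative control and 4.31 in normal cells. The knockdown array was the lowest, and the other 4 lay between 3.78 and 4.64. The difference was -1.59 (-1.99 to -1.19), or 3.01-fold lower, and -1.32 relative to the all-gene median, but the call held under 2 of the 6 scalings, with a range of -1.59 to -0.87. The probes of Ube2v1 disagreed. Beside the brightest probe, another differed by -1.73, while others differed by 0.10 and 0.37. The remaining probe, above background on only 2 arrays, differed by 2.02. The mean of all Ube2v1 probes, this dim one included, differed by -0.17, which ends the call. The RefSeq table also lists 19 Ube2v1 pseudogenes, and whether they share signal with these probes was not tested.

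Ube2n, the catalytic member, read 3.71 with the knockdown virus and between 3.51 and 3.80 on the other arrays, a difference of -0.09. Ube2v2, the other inactive partner, differed by -0.65. Among 10 measured ligase genes of the Rad6 and Ube2n branches, of 12 listed, 1 was called higher with the knockdown virus and 2 were called lower, against 8.8% and 10.4% of all genes. Traf6, a ligase that works with Ube2n, was at least 3.77-fold higher, since it was not well above background in the negative control, and it was called under 5 of the 6 scalings, with a range of 0.05 to 2.22. Of those called lower, Shprh, a helicase-like ligase of DNA damage tolerance, was 4.07-fold lower and called under all 6 scalings, and Chfr, a mitotic checkpoint ligase, was 2.81-fold lower and called under 2.

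Of the Ube2d and Ube2e genes, closely related E2s that work with many ligases, Ube2d1, Ube2d3, Ube2e2 and Ube2e3 read lower with the knockdown virus than with its negative control, with differences from -1.52 to -0.40, though that of Ube2d3 turned sign with the scaling. Ube2d2b read higher, at 0.23, and stayed above 0 under all 6 scalings. Ube2d1 read -0.49 with the knockdown virus, 1.04 with its negative control, 1.00 with the overexpression virus, 0.33 with that virus's negative control and 0.62 in normal cells. Its difference was -1.52 (-1.92 to -1.12), or 2.88-fold lower, and -1.26 relative to the all-gene median. The call held under 4 of the 6 scalings, and the difference was smaller against the other negative control (-0.82) and normal cells (-1.11). Ube2e3 was 2.37-fold lower (-1.25), Ube2d3 differed by -0.76 and Ube2e2 by -0.40, with 0.11 on another probe of Ube2e2.

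The RAD6 homologues Ube2a and Ube2b, which act with Rad18 after DNA damage and with Rnf20 on histones, differed by -0.66 and -0.25. On these probes the knockdown negative control itself read below the overexpression negative control, by -0.58 for Ube2a and -0.98 for Ube2b. A dimmer probe of Ube2a differed by -1.08 with the knockdown virus. Between the negative controls it turned the sign, at 0.78. Of the other members, Ube2z, which takes ubiquitin from Uba6, differed by -0.88, and Ube2r2, a close relative of Cdc34 that serves cullin ligases, by -0.80. Ube2g1 differed by -0.53 and Ube2k by 0.29. Ube2r2 and Ube2k also had probes that disagreed in sign, with -0.80 on the brighter and 0.87 on the other for Ube2r2, and 0.29 and -0.33 for Ube2k, whose probes averaged -0.02. Cdc34, an E2 outside the Ube2 names, differed by -1.15, and in that list of 7 genes Atg10, the E2-like enzyme of autophagy, was called, 3.95-fold lower, under all 6 scalings.

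Upstream of the E2s, none of the 8 E1 genes was called with the knockdown virus, where 8.8% of all genes were called higher and 10.4% lower. Their median was -0.72 (-0.74 to -0.13 over the scalings). Uba1, which charges most E2s, differed by -1.12 and Uba2, of the SUMO pathway, by -1.12. All 8 genes of ubiquitin, NEDD8 and SUMO themselves lay below 0, where 38.83% of all genes lay above 0. Of the 4467 genes that, like these 8, had a mean level at or above 0, 3319 also lay below 0. The median of the 8 was -0.90, and Rps27a, which encodes ubiquitin fused to a ribosomal protein, was called lower (2.73-fold). That median ran from -0.90 to 0.04 over the scalings, and the Rps27a call held under 1 of the 6.

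**Figure D3:**
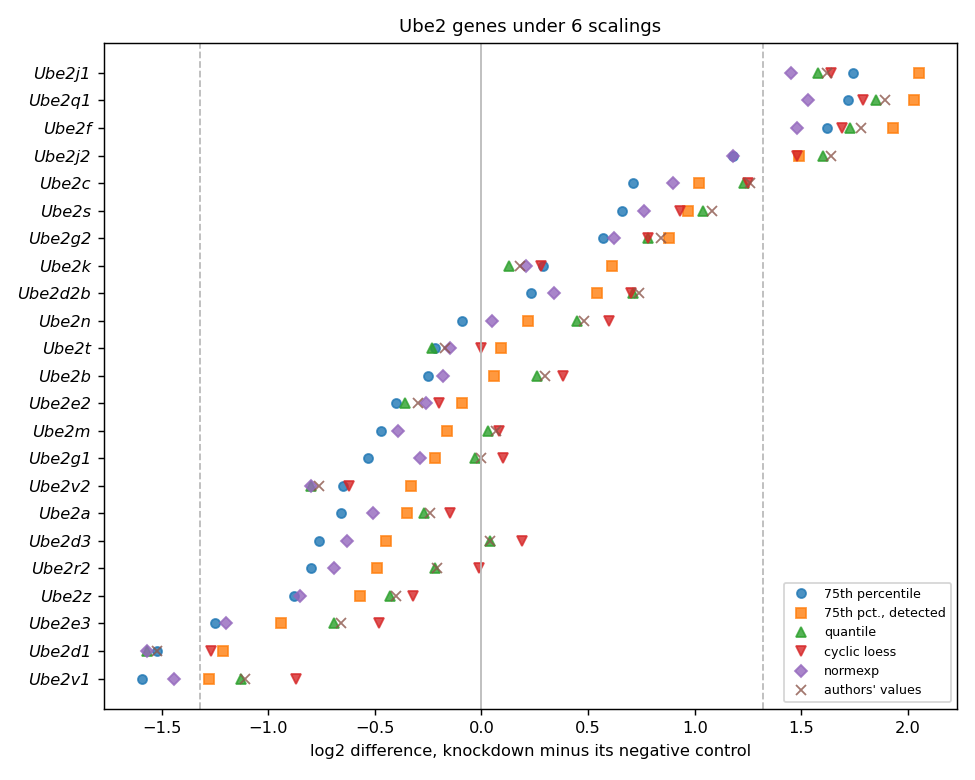
Log2 difference between the knockdown array and its negative control for 23 of the 24 Ube2 genes (rows) under 6 scalings (symbols), with 2.5-fold as dashed lines. Ube2j1, Ube2q1 and Ube2f stayed past the line under all 6, Ube2v1 under 2 and Ube2d1 under 4, and Ube2n, Ube2t, Ube2b, Ube2m, Ube2g1 and Ube2d3 changed sign.

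The direction of the knockdown difference went with the brightness of the probe. Of the 24 members, 19 had a mean level at or above 0 and 5 below. None of the 19 was called higher and 2 were called lower, with a median of -0.40; of the 5, 3 were called higher and none lower, with a median of 1.62. The same split over all genes gave 3.18% higher and 16.2% lower among the 4467 brighter genes, with a median of -0.58, and 11.4% higher and 7.12% lower among the 6235 dimmer ones, with a median of -0.04. The part of probe brightness in the calls of Ube2j1, Ube2q1 and Ube2f was not tested. The knockdown array held the highest level of the 5 in 8 members and the lowest in 10, which is 33.3% and 41.7% of them, against 25.8% and 41.7% of all genes.

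**Figure D4:**
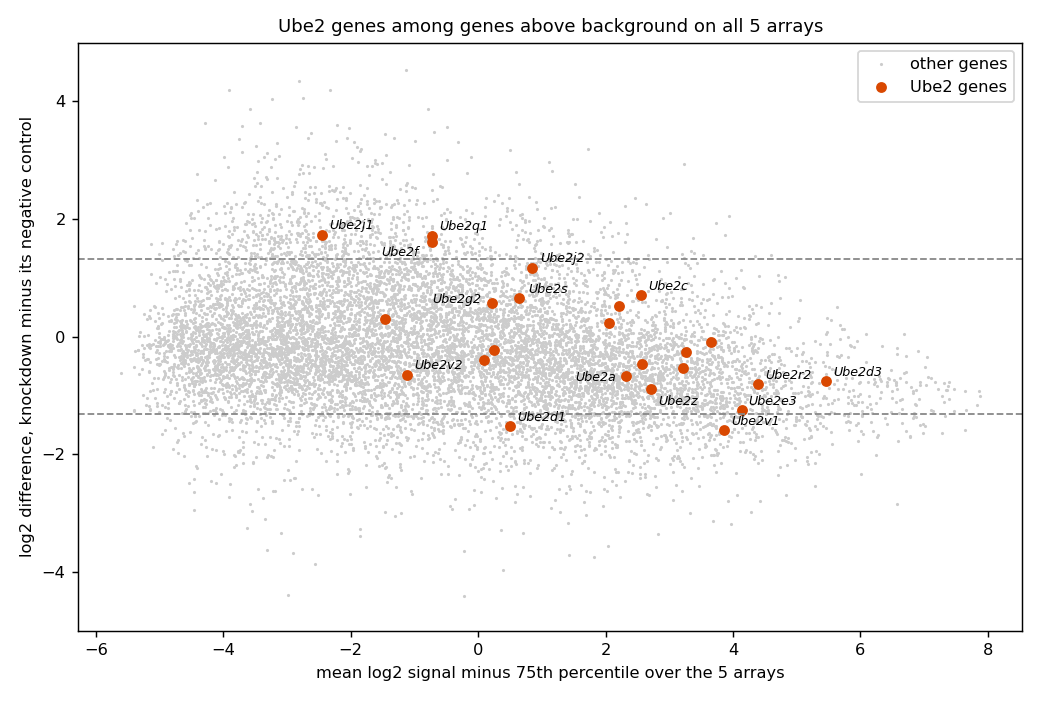
Log2 difference between the knockdown array and its negative control (vertical) against the mean level over the 5 arrays (horizontal, log2 signal minus the 75th percentile) for the genes above background on all arrays (grey) and the 24 Ube2 genes (coloured), with 2.5-fold as dashed lines. The 3 Ube2 genes called higher lie left of 0 on the horizontal axis, where the all-gene median was -0.04, and the 2 called lower lie right of it, where the all-gene median was -0.58.

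With the overexpression virus the members differed little from its negative control. Ube2s was the 1 of 24 called higher and none was called lower, against 2.02% and 1.12% of the 11797 genes tested, or 3.14% in either direction. The median was 0.01 for the members and -0.01 for all genes, and the median size 0.19 against 0.25. Ube2c (-1.10) and Ube2d1 (0.67) had the next differences in size, and the remaining 21 lay between -0.43 (Ube2t) and 0.28 (Ube2v1). None of Ube2j1 (0.13), Ube2q1 (0.09), Ube2f (-0.40) and Ube2v1 (0.28) was called. No member was called against the knockdown negative control, where 1.93% of all genes were called higher and 2.33% lower (4.26% in all), or against normal cells, where 7.55% were called higher and 10.5% lower (18.1% in all). The arrays labelled overexpression and its negative control had Tmub1 levels of 0.44 and 0.37, as above.

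The control arrays give the spread of the members without a Tmub1 virus. Between the negative controls, 1 of 24 members was called (Ube2s, higher in the knockdown negative control), against 5.58% of all genes called higher and 3.4% lower (8.98% in all), and the median size was 0.33 against 0.44. Between the overexpression negative control and normal cells 1 was called (Ube2s, lower), against 7.92% of all genes called higher and 11.9% lower (19.8% in all), with a median size of 0.51 against 0.69. Between the knockdown negative control and normal cells 0 were called, against 7.47% higher and 9.81% lower (17.3% in all), with a median size of 0.38 against 0.57. The knockdown array against the overexpression negative control gave 4 members higher (Ube2f, Ube2j1, Ube2q1 and Ube2s) and 2 lower (Ube2e3 and Ube2v1), against 14.6% and 16.6% of all genes (31.1% in all). Against normal cells it gave 4 higher (Ube2f, Ube2j1, Ube2j2 and Ube2q1) and 1 lower (Ube2v1), against 11.5% and 19.2% (30.7% in all).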

How the data were processed

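Per the labels, 1 µg of total RNA per group was labelled for a one-colour array, 1 array for each of 5 groups. The deposited scanner files hold intensity values, background-subtracted and detrended by Agilent Feature Extraction (11.0.1.1 per the file headers; 9.1 per the submitters' processing notes). The authors' deposited value table, in log2 units, was used as an alternative. Control and poor spots were left out, spots of a probe were averaged, and the array's 75th percentile was subtracted on the log2 scale. Of 30367 probes, 18005 were named through RefSeq accessions and 12362 stayed unnamed, and 16 further Ube2 symbols of the RefSeq table had no named probe. Where several probes named a gene, the one brightest on average was used. A reading under background was raised to the smallest reading well above background on that array, giving a bound. Alternatives covered scaling (quantile, cyclic loess and normexp with an offset of 50, limma 3.58.1 in R 4.3.3), dim-probe filters, probe choice and fold thresholds. The calling step was tested on simulated data. Values on every array were given for the cell-cycle and ER members and for every member called with a Tmub1 virus, and up to 3 called genes per direction of each companion list were named. Some single genes are not reported here. The members and lists were chosen with earlier results of these data known.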

Additional observations from a re-analysis of the deposited data

How the results depend on the processing

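No paired analysis was possible because each group has 1 array. With the overexpression virus (1 member called), 0 were called by quantile scaling, normexp, the authors' deposited table, a 4-fold threshold, or against either other reference, and 2 by a 2-fold threshold; the Ube2s difference turned to -0.65 and -0.64 against the other negative control and normal cells, since the low array was its own control. With the knockdown virus (5 called), 0 passed 4-fold, and other settings gave 4 to 7. Between the negative controls (1 called), 2 were called with no background filter and 0 at 4-fold. Between the overexpression negative control and normal cells (1 called), 2 were called with no filter, 3 at 2-fold and 0 at 4-fold; between the knockdown negative control and normal cells (0 called), 1 with no filter. Over all genes, normexp called 0.681% with the overexpression virus, against 3.14%, and 11.7% with the knockdown virus, against 19.2%. It called 3.44% between the negative controls (8.98%), and 8.95% and 7.18% of the overexpression and knockdown negative controls against normal cells (19.8% and 17.3%). Cyclic loess called 12.6% for the overexpression negative control against normal cells, and dropping the background filter 4.95% with the overexpression virus. Signal over background limits Ube2ql1 and Ube2q2l, which had no usable reading.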
